A study of Mus musculus with 5 samples.

Results

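GL sc is the name the authors gave to a small group of mouse kidney cells, which they read as putative stem cells. The cells were taken by that name in the authors' annotation, and they number 143 of 14197 cells in all, or 1.01%. The cells came from kidneys of adult FVB/Ant mice, perfused, digested with collagenase and trypsin, and captured in droplets, where the 3′ ends of mRNA were counted as molecules by their unique identifiers (UMIs). Wild type mice gave 2 libraries, called WT female and WT mix here. The 3 knockout libraries, KO female, KO male and KO mix, came from littermates that carry a CRISPR/Cas9 edit placing STOP codons after the start codon of *Fame* (*Ccdc198*), and mix stands for pooled males and females. The edit leaves the counted 3′ end in place, so the level of *Fame* checks no genotype label. In GL sc *Fame* had 1 UMI in WT female, 4 in WT mix, 4 in KO female and 5 in KO mix. All 3 single-sex libraries belong to run 2 of the authors' annotation and both mixed libraries to run 3, so the run and the pooling of the sexes cannot be told apart. Which step of the work a run stands for is not stated. The number of mice behind a library is not given, so p-values measure the spread between libraries, which may be technical.

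The glomerulus is a tuft of capillaries held together by mesangial cells, specialised perivascular cells that contract, deposit matrix and share a lineage with smooth muscle and renin cells. Its capillaries are lined by fenestrated endothelium and covered by podocytes, and parietal cells line its capsule. Adult kidneys have been searched for cells that keep progenitor genes of the developing nephron, and a stem cell is usually sought by such genes, by surface markers and by a capacity to divide.

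GL sc cells were found in 4 of 5 libraries, with 59 cells in WT mix, 71 in KO mix, 6 in WT female and 7 in KO female, and 0 of the 1794 cells of KO male. The 130 cells of both mixed libraries therefore carry nearly all of the values below. The GL sc cells hold 19571 UMIs in WT female, 118162 in WT mix, 24666 in KO female and 174576 in KO mix, so that 3 UMIs, the limit that a count of 0 allows, stand for 153, 25.4, 122 and 17.2 CPM (counts scaled to a total of 1e6). A GL sc cell had a median of 1797 UMIs and 978 genes, with 14.0% mitochondrial UMIs and a doublet score of 0.0462. Of the cells, 16 had a doublet score of 0.2 or more and 26 had over 25% mitochondrial UMIs. Of 25 barcodes found in more than 1 library, 1 belonged to a GL sc cell and in 0 were both cells GL sc. Levels are CPM of the summed UMIs of the cells named. The authors grouped the cells on these same counts, so GL sc is set beside other cells as a description, without a test.

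All 6 genes of the mesangial list were at least 4-fold higher in GL sc than in the other cells, against 0 of 10 progenitor genes, 2 of 9 stem cell surface and filament genes and 0 of 16 cycling genes. A gene could be counted only with at least 10 GL sc UMIs in each mixed library. Of the progenitor and the cycling genes 0 had that many, so both counts of 0 were fixed by this limit. The lists were also chosen with earlier results of these data known. These counts therefore do not decide on the stem cell reading. The summed progenitor list was lower than in the other cells of both mixed libraries, and the cycling list only in WT mix. The cells are called by their annotation name throughout. A ratio of at least 4 over all other cells of the same library, in both mixed libraries and with at least 10 GL sc UMIs in each, was reached by 359 of 17389 genes, which is 2.06% of the matrix and 17.5% of the 2053 genes with 10 UMIs in each. Of the 359 genes, 152 (0.874% of the matrix) were also higher in GL sc than in each of the 18 other annotated types. The 25 genes with the largest smaller ratio ran from *H2-Q1* at 403 to *Cep112* and *Lhfp* at 64.0, and 3 of them (*Ptn*, *Itga8* and *Fhl2*) belong to the mesangial list. Without 6 GL sc cells rich in RNA of other types, the count was again 359. With cells above 25% mitochondrial UMIs left out, it was 233.

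All 6 genes of the mesangial list were among the 359 and all 6 were highest in GL sc among all types. The list was chosen with earlier results of these data known, so these counts are a description and no independent support for a cell type. *Ptn*, a secreted growth factor, stood at 2504 CPM in WT female, 2860 in WT mix, 2108 in KO female and 2486 in KO mix. The level of *Ptn* in the other cells of the mixed libraries was 5.25 and 9.97 CPM, and the ratio was 545 in WT mix and 249 in KO mix. No GL sc library came near the other cells. *Itga8*, the integrin chain that mesangial cells use to hold to matrix, had 1022, 1329, 730 and 1088 CPM in the same order of libraries, with ratios of 323 and 191. *Itga8* lies at chr2:12106632-12301922 on the minus strand of GRCm38 and *Ptn* at chr6:36714929-36810220 on the minus strand.

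*Serpine2*, which encodes a secreted protease inhibitor, had 1482, 2167, 649 and 1638 CPM. *Gata3*, a transcription factor, had 562, 812, 243 and 556 CPM, and the collecting duct principal cells came next (238 and 269 in the mixed libraries). *Agtr1a*, the angiotensin II receptor, had 511, 753, 203 and 412 CPM, and *Fhl2*, a LIM domain cofactor, 613, 694, 324 and 705. For *Serpine2*, *Gata3*, *Agtr1a* and *Fhl2* the level was lowest in KO female, which rests on 7 cells.

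The list was not carried by a few cells. Each of the 143 cells had at least 1 UMI of the mesangial list and 141 had at least 3, with a median of 13 per cell and a highest value of 97. A *Ptn* UMI was found in 94.9% of GL sc cells of WT mix (95% exact binomial interval 85.9 to 98.9, median depth 1778 UMIs) and in 94.4% of KO mix (86.2 to 98.4, 1722 UMIs). Among proximal straight tubule cells, which should lack the gene, the share was 0.125% in WT mix (median depth 4113 UMIs) and 1.10% in KO mix (5318 UMIs). After each cell was thinned to 1000 UMIs, with no GL sc cell left out, the GL sc shares were 88.1% and 90.1%. Intervals and limits cover counting error only.

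**Figure D1:**
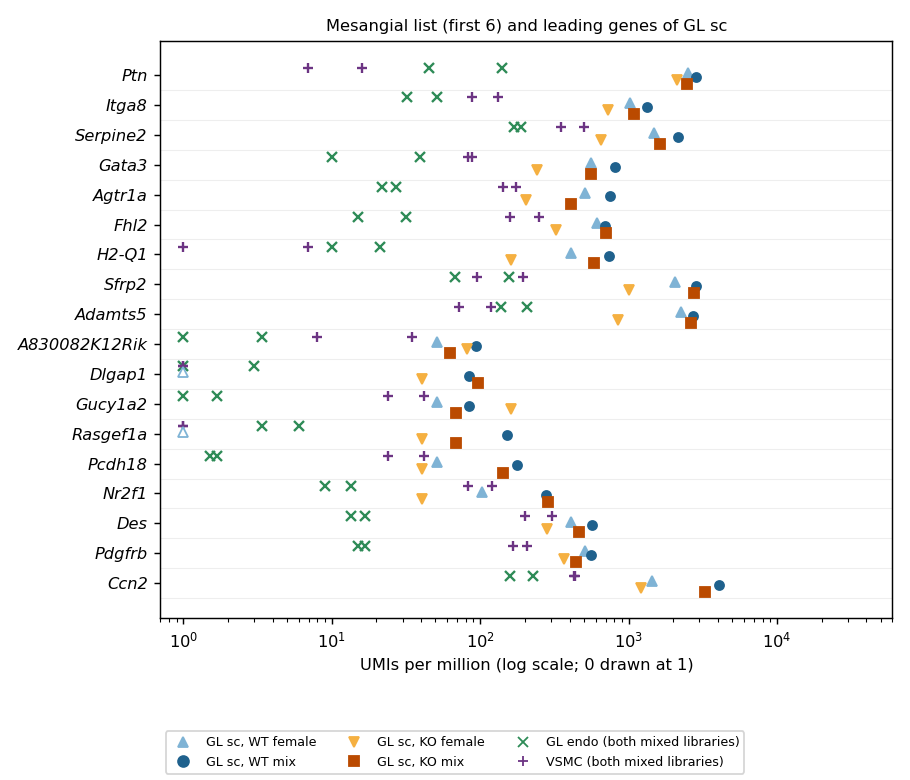
Levels in CPM (log scale, 0 drawn at 1) of the 6 genes of the mesangial list and of 12 leading genes, for GL sc in the 4 libraries that hold such cells (filled symbols; open where 0) and for GL endo (crosses) and VSMC (plus signs) in both mixed libraries. *Ptn* lies between 2108 and 2860 in GL sc, and at 140 or below in GL endo and VSMC.

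*Sfrp2*, a secreted modulator of Wnt signalling, had 2044, 2844, 1014 and 2744 CPM in WT female, WT mix, KO female and KO mix, beside 95.7 and 194 in VSMC, the next type. *Adamts5*, a protease that cuts proteoglycans, had 2248, 2717, 851 and 2635 CPM, and *Ccn2*, a matricellular protein, 1431, 4096, 1216 and 3288. The fibroblasts (Fib) came next for both genes in both mixed libraries, with at most 755 CPM. Both were lower in each female library than in each mixed library. The share of all genes with that split was not counted, so it is not read as a trait of these genes. CPM also depend on the share of other transcripts, such as *Malat1*, which was larger in the female libraries.

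*H2-Q1*, a class I histocompatibility gene, had the largest smaller ratio. It stood at 409, 736, 162 and 584 CPM in GL sc and at 1.23 and 1.45 in the other cells of the mixed libraries, with GL endo next at 10.1 and 21.0. The class I genes of this family are near copies of each other, so reads may have been divided among them. *A830082K12Rik*, annotated as antisense, and the transcription factor gene *Nr2f1* overlap on opposite strands of chromosome 13. Both were in the 25, with 11 and 11 UMIs of *A830082K12Rik* and 33 and 50 of *Nr2f1* in WT mix and KO mix.

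*S1pr3*, a receptor of the lipid sphingosine 1-phosphate, had 255, 296, 284 and 327 CPM, and *Serpini1*, a protease inhibitor, 562, 525, 527 and 418. *Gprin3*, which binds G proteins, had 51.1, 499, 284 and 504 CPM. *S1pr3*, *Serpini1* and *Gprin3* were highest in GL sc of all types, while *Cd248* and *Gdf10*, a surface sialomucin of perivascular cells and a secreted TGF-β relative, were higher in fibroblasts of WT mix (448 and 414 CPM) than in GL sc (237 and 339).

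The most abundant transcripts of GL sc were in part shared with many types. Outside the mitochondrial genes, *Malat1*, *Tmsb4x*, *Kap*, *Actb*, *Igfbp7*, *Ccn2*, *Fth1*, *Igfbp5* and *Gm42418* were among the 10 highest in both mixed libraries, with *Hspa1a* in WT mix and *Sfrp2* in KO mix. A *Kap* UMI was found in 100% of GL sc, GL endo and VSMC cells of both mixed libraries. In GL sc of WT female and KO female *Kap* had 1 and 2 UMIs. *Igfbp5* and *Igfbp7* encode secreted proteins that bind insulin-like growth factors. *Igfbp5* had 4905, 3758, 3203 and 4204 CPM, above GL endo at 2798 and 3086 in the mixed libraries, and *Igfbp7* had 2708, 6110, 2311 and 5934. Of the 11 MHC and interferon genes 7 had at least 10 UMIs in each mixed library, and 2 were 4-fold higher than in the other cells. Over all genes with that many UMIs, 17.5% were 4-fold higher. The 2 encode the antiviral membrane proteins *Ifitm2* and *Ifitm3*, with 1066 and 1938 CPM in WT mix and 819 and 1673 in KO mix.

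Both PDGF receptors, which read platelet-derived growth factors and recruit perivascular cells, were present. *Pdgfrb* had 511, 559, 365 and 441 CPM, above VSMC at 167 and 208. *Pdgfra* had 204, 161, 81.1 and 85.9 CPM, below the fibroblasts at 379 and 206, and VSMC had 0 UMIs of it. Of the 17 genes of the list of PDGF, angiopoietin, VEGF and Notch genes, 3 were 4-fold higher in GL sc, namely these receptors and *Angpt2*. Only 4 of the 17 had at least 10 UMIs in each mixed library, and 17.5% of all genes with that many were 4-fold higher. *Angpt2*, a ligand of the endothelial receptor Tie2, was highest in the long descending limb of juxtamedullary nephrons.

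GL sc held one set of contractile genes and lacked another. Of the 11 smooth muscle genes 4 were at least 4-fold higher than in the other cells (*Des*, *Myl9*, *Mylk* and *Tpm2*). These were the only 4 with at least 10 UMIs in each mixed library, and 17.5% of all genes with that many were 4-fold higher. By contrast, *Myh11*, *Cnn1*, *Lmod1* and *Actg2* had 0 UMIs in every GL sc library (*Actg2* also had 0 in VSMC). *Des*, the muscle intermediate filament desmin, had 409, 567, 284 and 464 CPM and was above VSMC (303 and 201). *Myl9*, the regulatory light chain of smooth muscle myosin, had 613, 880, 284 and 727 CPM and was below VSMC (3237 and 2217). *Mylk*, the kinase of that light chain, had 409, 584, 365 and 556 CPM beside 1419 and 1164 in VSMC.

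Smooth muscle actin, *Acta2*, had 2 UMIs in WT mix, 1 in KO mix and 0 in both female libraries. That is 16.9 CPM in WT mix (95% exact Poisson interval 2.05 to 61.1) and 5.73 in KO mix (0.145 to 31.9), against 6411 and 5209 in VSMC. *Tagln*, an actin-binding protein, had the same UMIs in GL sc and 5127 and 4094 CPM in VSMC. *Myh11*, the smooth muscle myosin heavy chain, had 2249 and 1455 CPM in VSMC. With *Acta2*, *Tagln*, *Myh11*, *Cnn1* and *Lmod1* summed, 82.6% of VSMC cells in WT mix and 81.1% in KO mix held at least 3 UMIs, and 0 of 59 and 0 of 71 GL sc cells did. In turn 98.3% and 100% of GL sc cells, and 18.8% and 18.9% of VSMC, held at least 3 UMIs of the mesangial list.

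None of the 4 renin cell genes was 4-fold higher in GL sc than in the other cells, but only *Rgs5* had the 10 UMIs in each mixed library that the count needs. The list had UMIs in 11 of 59 GL sc cells of WT mix and 14 of 71 of KO mix. *Ren1* had 42 UMIs in GL sc of WT mix, all of them in 1 cell, and 5 in KO mix, each in a cell of its own. VSMC, the type that holds the renin transcripts in this annotation, had 25316 and 20636 CPM. *Rgs5*, a pericyte and renin cell gene, had 102 and 115 CPM in GL sc beside 4641 and 4343 in VSMC. Of the 8 pericyte genes 3 were 4-fold higher in GL sc than in the other cells (*Pdgfrb*, *Mcam* and *Rgs4*). Only 4 of the 8 had at least 10 UMIs in each mixed library, and 17.5% of all genes with that many were 4-fold higher.

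Vascular tone genes were present in part. *Gucy1a1* and *Gucy1b1* encode the subunits of the nitric oxide receptor guanylate cyclase, and *Pde5a* the phosphodiesterase that degrades its product. *Gucy1a1* had 255, 702, 365 and 538 CPM, *Gucy1b1* 307, 212, 324 and 275, and *Pde5a* 153, 152, 122 and 115. Together with *Agtr1a* these made 4 of the 14 genes of the list that were 4-fold higher. No other gene of the list had at least 10 UMIs in each mixed library, and 17.5% of all genes with that many were 4-fold higher. The endothelin receptor *Ednra* had 5 and 7 UMIs in the mixed libraries, too few to enter the count.

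**Figure D2:**
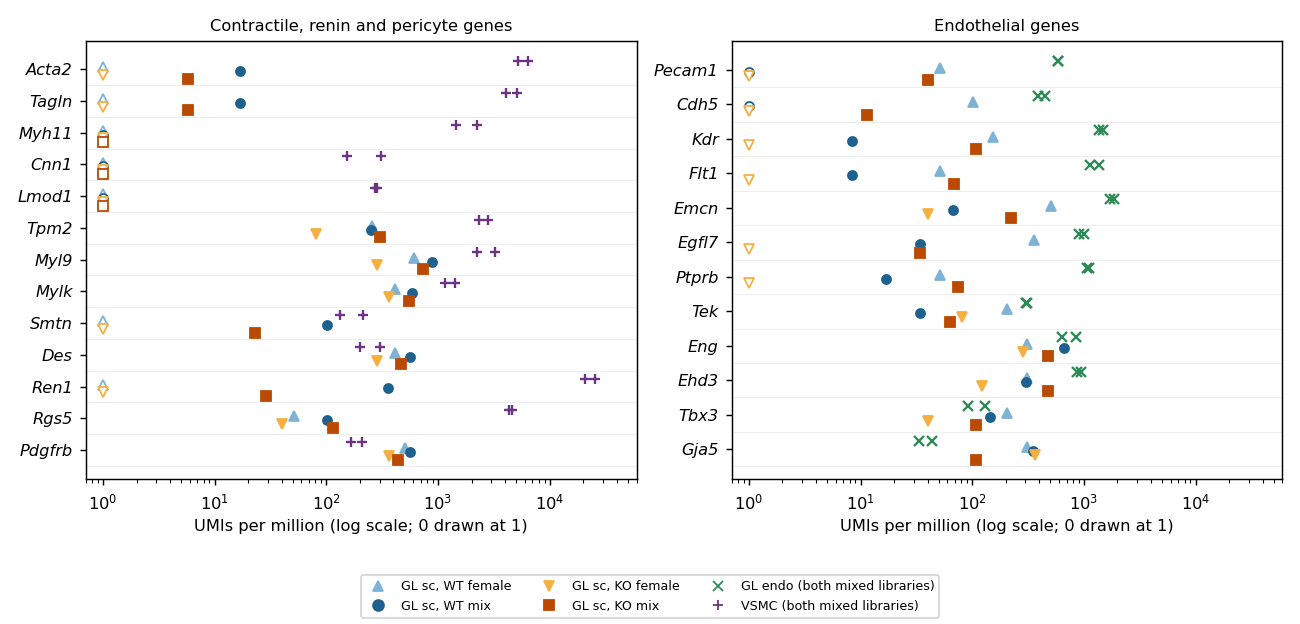
Levels in CPM (log scale, 0 drawn at 1 with open symbols) of contractile, renin and pericyte genes (left, with VSMC as plus signs) and endothelial genes (right, with GL endo as crosses) in GL sc of 4 libraries. *Acta2*, *Tagln* and *Myh11* lie at 16.9 or below in GL sc and at 1455 or above in VSMC, while *Des* and *Pdgfrb* are higher in GL sc of both mixed libraries than in VSMC.

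Promoter windows of the genes were read for the CArG box, the site of serum response factor that many contractile genes carry, and for the letters AGATAA, which GATA factors can bind. Windows of 300 bases, 250 before and 50 from the start, were taken from RefSeq on GRCm38.p6 and searched on both strands. Only exact matches were counted, and the CArG box was taken as CC and GG with only A or T between them, 10 letters in all. The CArG box was in 1.63% of all 32851 windows and AGATAA in 11.2%. Among the 25 leading genes 20 had a window, with 29 windows in all, and 1 (*Fhl2*) held a CArG box and 2 (*Fhl2* and *Cep112*) AGATAA. Counts for these sets are of genes, while the percentages above are of windows. Among the 11 smooth muscle genes 8 had a window, and 1 (*Myl9*) held a CArG box and 0 AGATAA. Both windows of *Fhl2* (chr1:43163912-43164211 and chr1:43196712-43197011, minus strand) and that of *Myl9* (chr2:156775214-156775513, plus strand) are shown because they hold the CArG box. Capitals mark the CArG box and, in the window of *Fhl2* with the higher coordinates, AGATAA read on the other strand, and the matches do not overlap.
Fhl2, chr1:43163912-43164211: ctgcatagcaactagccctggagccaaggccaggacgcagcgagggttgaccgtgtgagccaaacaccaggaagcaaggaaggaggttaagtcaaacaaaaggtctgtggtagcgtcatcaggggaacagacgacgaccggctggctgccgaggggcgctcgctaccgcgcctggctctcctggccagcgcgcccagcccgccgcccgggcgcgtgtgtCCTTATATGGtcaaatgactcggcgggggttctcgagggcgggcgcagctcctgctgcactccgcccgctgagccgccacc
Fhl2, chr1:43196712-43197011: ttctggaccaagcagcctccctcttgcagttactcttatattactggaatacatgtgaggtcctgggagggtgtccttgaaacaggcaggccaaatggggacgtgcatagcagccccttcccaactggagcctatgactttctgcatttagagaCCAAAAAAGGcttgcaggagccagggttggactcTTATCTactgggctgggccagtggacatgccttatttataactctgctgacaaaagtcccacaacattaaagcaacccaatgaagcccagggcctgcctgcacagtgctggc
Myl9, chr2:156775214-156775513: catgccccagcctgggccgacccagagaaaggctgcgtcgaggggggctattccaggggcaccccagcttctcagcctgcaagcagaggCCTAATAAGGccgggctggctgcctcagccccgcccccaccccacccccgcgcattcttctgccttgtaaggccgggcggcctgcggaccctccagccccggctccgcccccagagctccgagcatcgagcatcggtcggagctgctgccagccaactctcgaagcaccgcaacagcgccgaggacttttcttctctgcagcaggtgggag

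The window of *Acta2*, nearly absent from GL sc, held no exact match to either. It does hold ccctatatgg and ccttgtttgg, which miss the searched CArG pattern by a C and a G inside it. Such near matches were not counted for any gene. The matches read here are letters in a window, and which transcripts of a gene were expressed was not read from 3′ counts.

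The progenitor list was near 0 in GL sc (25.4 and 51.6 CPM summed in WT mix and KO mix, beside 187 and 232 in the other cells), while the stem cell surface and cycling lists were not. The stem cell surface and filament list summed to 745 and 630 CPM, beside 1093 and 1033 in the other cells, and the cycling list to 161 and 269, beside 185 and 180. Of the 11 nephron and kidney progenitor genes 10 were in the matrix, and *Cited1*, *Osr1*, *Lgr5*, *Sox9*, *Foxd1* and *Eya1* had 0 UMIs in every GL sc library. The other 4, *Sall1*, *Pax2*, *Prom1* and *Cd24a*, had between 0 and 7 UMIs in a library. *Cd24a*, a surface protein, had 16.9 and 40.1 CPM in GL sc of the mixed libraries beside 644 and 579 in GL endo. None of the 10 genes had 10 UMIs in each mixed library, so none could be counted as 4-fold higher in GL sc.

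Of the 9 stem cell surface and filament genes, *Kit*, *Cd44* and *Thy1* had 0 UMIs, and 2 were 4-fold higher in GL sc than in the other cells. Only 4 of the 9 had at least 10 UMIs in each mixed library, and 17.5% of all genes with that many were 4-fold higher. *Cd34*, a surface sialomucin also known from endothelium and fibroblasts, had 255, 372, 203 and 258 CPM, while GL endo had 345 and 365 in the mixed libraries. *Nes*, the filament nestin, had 10 and 18 UMIs in the mixed libraries and was higher in podocytes than in GL sc. *Ly6a* was lower in GL sc, with 110 and 120 CPM, than in GL endo, with 2128 and 2067. *Abcg2*, a membrane transporter, had 204, 161, 203 and 109 CPM and was found in 27.1% and 19.7% of GL sc cells of the mixed libraries, and GL endo had 197 and 209 CPM.

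Among 16 cycling genes 0 were counted as 4-fold higher, but none of the 16 had the 10 UMIs in each mixed library that the count needs. *Mki67*, *Top2a*, *Mcm6*, *Ccnb1*, *Ccnb2*, *Birc5*, *Ube2c* and *Cenpf* had 0 UMIs in every GL sc library. The limit that a count of 0 allows is 25.4 CPM in WT mix and 17.2 in KO mix, above the levels of *Mki67* and *Top2a* in GL endo (8.41 and 4.51 for *Mki67*, 15.1 and 3.01 for *Top2a*). A low rate of division was therefore not detectable at this depth. *Pcna* had 42.3 and 85.9 CPM and *Hmgb2* 50.8 and 97.4 in the mixed libraries.

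**Figure D3:**
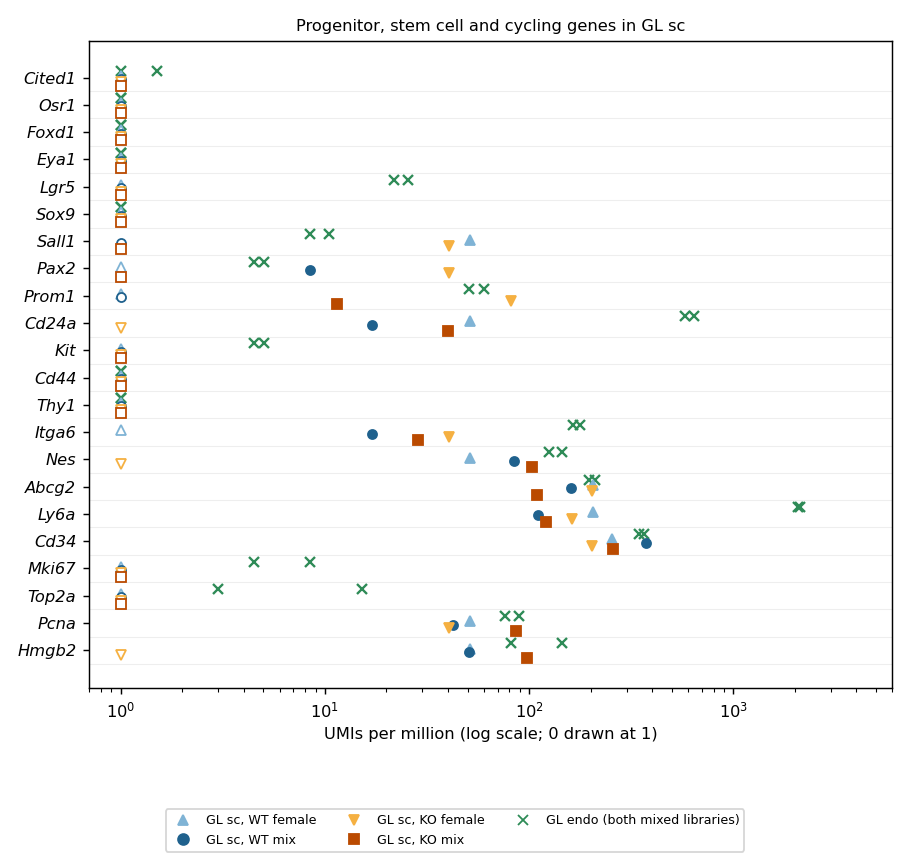
Levels in CPM (log scale, 0 drawn at 1 with open symbols) of progenitor, stem cell and cycling genes in GL sc of 4 libraries and in GL endo of both mixed libraries (crosses). The first 6 genes, *Mki67* and *Top2a* are at 0 in all 4 libraries, and *Cd34* has the highest levels, 203 to 372.

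Endothelial genes differed among themselves in GL sc. The 12-gene endothelial list summed to 906 and 1169 CPM in WT mix and KO mix, above the other cells (617 and 556) and below GL endo (9452 and 9033). *Kdr*, the main VEGF receptor, had 8.46 CPM in WT mix and 109 in KO mix, beside 1489 and 1375 in GL endo, and *Flt1* had 8.46 and 68.7 beside 1358 and 1135. In KO mix 4 cells and in WT female 1 cell held at least 3 UMIs of *Pecam1*, *Cdh5*, *Kdr* and *Flt1* together, and these 5 cells also held at least 3 of the mesangial list. Of the 12 endothelial genes only *Eng*, a TGF-β coreceptor, was 4-fold higher than in the other cells, at 307, 660, 284 and 481 CPM, with GL endo at 855 and 637. None of the other genes of that list had the 10 UMIs in each mixed library that the count needs. Of the 5 glomerular endothelial genes 2 were 4-fold higher (*Ehd3* and *Tbx3*), and of the 7 arterial ones 2 (*Gja5* and *Efnb2*). No other gene of those lists had 10 UMIs in each mixed library, and 17.5% of all genes with that many were 4-fold higher. The transcription factor gene *Tbx3* had 144 and 109 CPM in the mixed libraries beside 92.5 and 129 in GL endo, and *Efnb2*, the ligand ephrin B2, had 203 and 201 beside 308 and 328. *Ehd3*, an endocytic protein of glomerular endothelium, had 305 and 475 CPM, below GL endo at 937 and 861.

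*Gja5*, the gap junction protein connexin 40, was the one arterial endothelial gene highest in GL sc. Its levels were 307 (WT female), 347 (WT mix), 365 (KO female) and 109 CPM (KO mix). KO mix was the low library, and the genotypes overlapped.

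The summed fibroblast list was higher in GL sc than in the other cells of both mixed libraries, while the podocyte and immune lists were lower. The fibroblast list summed to 1278 and 962 CPM in GL sc of WT mix and KO mix, above the other cells at 210 and 203. Of its 10 genes 3 had at least 10 UMIs in each mixed library, and 2 were 4-fold higher (*Pdgfra* and *Mgp*). Over all genes with that many UMIs, 17.5% were 4-fold higher. *Col1a1*, *Col3a1*, *Lum*, *Dpt* and *Fbln1* of the fibroblast list had 0 UMIs, and *Mgp*, an inhibitor of calcification, had 409, 787, 527 and 642 CPM beside 16648 and 7478 in fibroblasts. The summed podocyte list held 322 and 281 CPM in GL sc of the mixed libraries, beside 344 and 353 in the other cells, and 4 of its 12 genes were at 0. *Wt1*, a transcription factor of podocytes, stood at 76.2 and 68.7 CPM beside 479 and 581 in podocytes. The neutrophil, T and NK cell, B cell, Schwann cell and lymphatic endothelial lists had 0 UMIs in both mixed libraries, and the myeloid list 2 and 3 UMIs.

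Several matrix genes were present. Of the fibrillar collagen genes, *Col1a1* and *Col3a1* were at 0, but *Col1a2* was not. *Col5a2* had 0, 4, 1 and 7 UMIs and *Col5a1* 0, 1, 0 and 3 in WT female, WT mix, KO female and KO mix. Of 14 basement membrane and matrix genes, 6 had at least 10 UMIs in each mixed library and 5 were 4-fold higher than in the other cells. Over all genes with that many UMIs, 17.5% were 4-fold higher. *Bgn*, a small proteoglycan, had 409, 719, 243 and 573 CPM, and *Sparc*, a collagen-binding protein, 766, 1379, 608 and 1312. *Nid1*, *Col4a1* and *Col4a2* had 228, 322 and 186 CPM in WT mix and 258, 401 and 206 in KO mix. Each of the 5 was higher in fibroblasts than in GL sc in both mixed libraries.

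Heat shock and immediate early transcripts, which many cells switch on under stress, were abundant. Of 24 such genes 22 had at least 10 UMIs in each mixed library, and 7 were 4-fold higher than in the other cells. Over all genes with that many UMIs, 17.5% were 4-fold higher. The genes *Hspa1a*, *Hspa1b* and *Dusp1* were highest in GL sc of all types. *Hspa1a*, an inducible chaperone, had 4248 CPM in WT mix, 2354 in KO mix, 920 in WT female and 608 in KO female. *Hspa1b* had, in the usual order of libraries, 204, 2437, 162 and 1128. Both were higher in each mixed library than in each female library, a split whose share over all genes was not counted. The genes are near copies of each other, so their reads may be divided unevenly. The list as a whole took 1.22% of GL sc UMIs in WT female, 2.55% in WT mix, 1.36% in KO female and 1.61% in KO mix. In GL endo it took 0.745%, 2.44%, 0.662% and 2.17%.

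The nearest types by expression were GL endo, VSMC and the long descending limb of juxtamedullary nephrons (Juxt ldl LOH). The Spearman correlation over genes of log2(CPM + 1), averaged over both mixed libraries, was 0.820, 0.785 and 0.747. Types differ in depth, and genes are not independent. At least 4-fold differences in both mixed libraries, with 10 UMIs of the higher type, put 150 genes (0.863% of the matrix) higher and 207 (1.19%) lower in GL sc than in GL endo. Against VSMC 87 genes (0.500%) were higher and 102 (0.587%) lower. Against the descending limb 258 (1.48%) were higher and 229 (1.32%) lower, and against the fibroblasts, with 16 and 21 cells, 52 (0.299%) were higher and 41 (0.236%) lower.

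The share of GL sc cells differed between the runs and was not shown to differ between genotypes. The share was 1.76% in WT mix and 1.99% in KO mix, but 0.236% in WT female and 0.238% in KO female. KO male had 0 of 1794 cells, which allows a share of up to 0.167%. The run 3 libraries averaged 1.87% ± 0.164 (SD, n = 2 libraries) and the run 2 libraries 0.158% ± 0.137 (SD, n = 3), which do not overlap. Cell numbers of all 19 types were compared with edgeR's quasi-likelihood test, in which 8 types (42.1%) passed an adjusted p of 0.05. GL sc rose by a log2 fold change of 3.39 from run 2 to run 3 (95% interval 2.40 to 4.37, standard error 0.50), with an adjusted p of 5.34e-08 in edgeR. An exact permutation of the 5 libraries (two-sided) gave p = 0.1, the smallest p that 2 libraries against 3 allow.

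Podocytes and myeloid cells were also more numerous in run 3 and red blood cells less, with log2 fold changes of 2.83, 2.73 and -3.87. Among glomerular cells (GL sc, GL endo, GL podo and PE) GL sc made up 15.4% in WT mix and 17.4% in KO mix, beside 3.70% in WT female and 5.07% in KO female. KO male had 0 of 99 such cells, which allows up to 3.03%. Knockout libraries averaged 0.743% of all cells (SD 1.09, n = 3) and wild type libraries 0.998% (SD 1.08, n = 2). The log2 fold change was -0.40 (95% interval -4.93 to 4.14, adjusted p = 0.892 from edgeR, exact two-sided permutation p = 0.8). Blocking by run gave -0.09 (95% interval -1.26 to 1.09, adjusted p = 0.990 from edgeR). It was 1.67 without WT mix and -2.87 without KO mix. Fewer cells in the kidney and fewer cells recovered from it cannot be told apart by these shares.

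**Figure D4:**
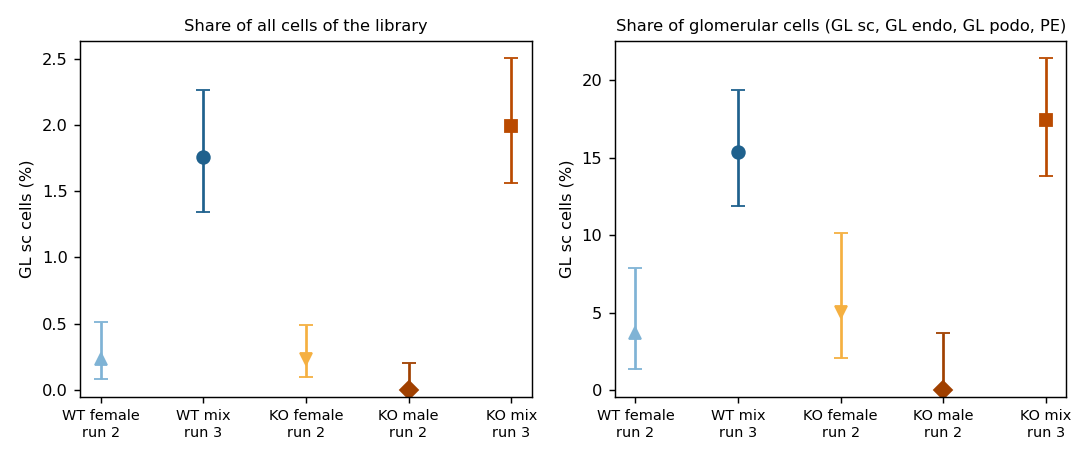
GL sc cells as a percentage of all cells (left) and of glomerular cells (right) in each library, with 95% exact binomial intervals for counting error only. WT mix and KO mix lie at 1.76% and 1.99% of all cells, and the 3 libraries of run 2 at 0.238% or below.

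GL sc cells came from both sexes in the mixed libraries. Of the GL sc cells with UMIs of only *Xist*, the transcript of the inactive X, or only Y-linked genes, 67.6% were Y-positive in WT mix (23 of 34 cells, 95% exact binomial interval 49.5 to 82.6) and 23.5% in KO mix (8 of 34, 10.7 to 41.2). In the other cells of the same libraries the shares were 67.9% and 22.7%. The mixed libraries therefore differ in sex composition as well as genotype. UMIs of both kinds were found in 4 GL sc cells of KO mix and 0 of WT mix, and in 71 and 39 of the other cells.

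The 13 cells of the female libraries differed from those of the mixed libraries in RNA quality. Their median mitochondrial share was 5.80% in WT female and 4.36% in KO female, while WT mix had 15.6% and KO mix 13.8%. *Malat1*, a nuclear RNA, made 112769 and 84205 CPM in the female and 37449 and 35114 CPM in the mixed libraries. The same split was seen in GL endo, whose nuclear RNA list took 10.0% and 9.46% of UMIs in the female and 3.09% and 3.39% in the mixed libraries. Its part in the differences between runs given above was not tested.

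No gene was called between knockout and wild type GL sc cells. UMIs were summed per library for the 4 libraries that hold GL sc cells, WT female and WT mix against KO female and KO mix. In the edgeR quasi-likelihood test with TMM normalization 0 of 1261 genes (0%) passed an adjusted p of 0.05, and 7 had an unadjusted p under 0.05. DESeq2 called 0 genes (4 at an unadjusted p under 0.05) and limma-voom 0 (57). Blocking by run, edgeR called 1 gene, the haemoglobin gene *Hbb-bt*, and without KO mix it called 2, *Spp1* and *Hbb-bt*. The knockout libraries lay wholly on one side of the wild type libraries for 313 genes, 24.8% of those tested. All 6 genes of the mesangial list were tested and were lower in knockout by the fitted value, with a median log2 fold change of -0.47, from -0.94 to -0.19, beside -0.03 over all genes tested, and 0 were called. Over all 1261 genes tested, 604 were higher in knockout by the fitted value.

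Levels in this comparison are CPM on the TMM scale, which corrects for composition. *Ptn* had 3434 in WT female, 4214 in WT mix, 3007 in KO female and 3704 in KO mix (log2 fold change -0.19, standard error 0.65, adjusted p = 0.9997 from edgeR), and the genotypes overlapped. *Agtr1a* had 701, 1110, 289 and 614 (log2 fold change -0.94, standard error 0.59, adjusted p = 0.9997 from edgeR), with both knockout libraries below both wild type libraries. *Fth1*, the ferritin heavy chain named by the study, had 2032, 6171, 4511 and 7519 (log2 fold change 0.54, 95% interval -1.19 to 2.27, adjusted p = 0.9997 from edgeR) and overlapped too. *Slc25a39*, a mitochondrial glutathione carrier named by the study, was not tested for low counts and had 0, 3, 2 and 24 UMIs. An interval of this width does not show that the genotypes were alike.

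The 5 genes with the lowest p among those higher in knockout were *Spp1*, *Nat8f1*, *Miox*, *Bphl* and *Keg1*, none of them called. *Spp1*, the secreted phosphoprotein osteopontin, had 3239 CPM on the TMM scale in KO female and 461 in KO mix, while the wild type libraries had 210 and 324 (log2 fold change 2.60, standard error 0.86, adjusted p = 0.9997 from edgeR). The paper lists *Spp1* among genes lowered in knockout, in another cell type (the proximal tubule cluster PT1), and calls it female-specific there. *Miox*, a proximal tubule oxygenase of inositol, had 841, 561, 5089 and 888. For both genes the KO female library, with 7 cells, was far above the others, and 1 of these cells held 8136 of its 24666 GL sc UMIs. That cell is among the 6 GL sc cells rich in RNA of other types. Without those 6 the log2 fold change was 1.41 for *Spp1* and 1.09 for *Miox*, beside 2.60 and 2.09 with all cells. *Keg1*, named for its expression in kidney, had 210, 237, 752 and 614. Each of these 5 genes, picked by p, had both knockout libraries above both wild type libraries. Over all genes tested 24.8% had no overlap in either direction. The 5 with the lowest p among those lower in knockout, *Cbx5*, *Anxa5*, *Axl*, *Itga4* and *Srpr*, had log2 fold changes from -1.31 to -1.14 and adjusted p = 0.9997 from edgeR. *Axl*, a receptor tyrosine kinase, had 280, 324, 57.8 and 154 CPM on the TMM scale. *Itga4*, an integrin chain, had 841, 386, 347 and 205.

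Proximal tubule and red blood cell RNA differed between the GL sc libraries, and the genotypes overlapped in the share of each list. The proximal tubule list took 0.312% of GL sc UMIs in WT female, 1.01% in WT mix, 0.985% in KO female and 2.13% in KO mix, beside 0.577%, 1.09%, 0.618% and 0.955% in GL endo. Of its 12 genes 9 were tested, and the fitted value was higher in knockout for 9, with a median log2 fold change of 1.08 and 0 called. Over all genes tested it was higher for 604 of 1261. For 6 of the 9 genes the knockout and wild type libraries did not overlap, beside 313 of 1261 over all genes tested. In KO mix the male tubule transcript *Kap* reached 2995 UMIs in GL sc, 2133 of them in 3 cells. The red blood cell list took 0.644%, 0%, 10.7% and 0.000573%, and 1 cell of KO female held 2501 of the 2645 UMIs there, 30.7% of its own UMIs. Without the 6 cells that were rich in endothelial, *Kap* or haemoglobin RNA, the median over the proximal tubule list was 0.02 (8 genes tested) and that over the red blood cell list -0.24 (3 genes), and 0 genes were called. The filter takes out *Kap* and haemoglobin RNA by its construction, so these medians say only how much of it lay in those cells.

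**Figure D5:**
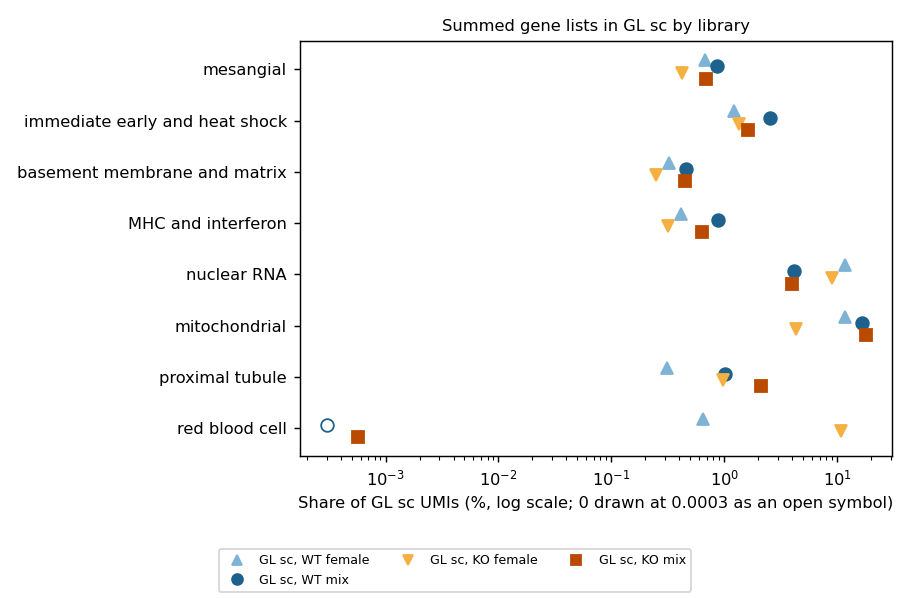
Share of GL sc UMIs (log scale, 0 drawn at 0.0003 as an open symbol) taken by 8 summed gene lists in the 4 libraries that hold GL sc cells. The mesangial list lies between 0.426% and 0.862% in all 4, while the red blood cell list ranges from 0% in WT mix to 10.7% in KO female.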

How the data were processed

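Single-cell RNA sequencing of 5 libraries was re-analysed from the deposited files. The authors mapped reads to mm10 and counted UMIs with Cell Ranger 4.0.0, and deposited them as raw counts per gene and cell. The authors also deposited for each cell its run, its percent of mitochondrial counts, its Scrublet doublet score and a cell type label from clustering in Seurat (3.2.2.9001), for which mitochondrial content was regressed out. They removed shallow cells and cells rich in mitochondrial counts. The lowest total left is 1001 UMIs and the highest mitochondrial share 50.0 percent. No further cell was removed as a doublet here. Of the annotation's columns 2 were not used, nor was the UMAP table.

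Raw counts of GL sc were summed per library. Genotypes were compared with edgeR 4.0.16 (robust quasi-likelihood test, TMM, default filter, Benjamini-Hochberg adjustment at 0.05) in R 4.3.3, and cell numbers likewise with total cells as offset. DESeq2 1.42.0 and limma 3.58.1 were alternatives. Ratios to other cells used libraries with at least 20 GL sc cells, and a denominator of 0 took 3 counts. Genes were named by rule, namely the 25 with the largest smaller ratio, up to 10 of those highest in GL sc, the 10 highest per mixed library, the 5 lowest p in each direction where fewer than 5 were called, *Fame*, *Fth1*, *Slc25a39* and members of lists. The members and lists were chosen with earlier results of these data known. Cells rich in RNA of other types (at least 3 UMIs of 4 endothelial genes, or 10 percent of UMIs from *Kap* or haemoglobin genes) were left out in an alternative chosen after seeing the data. Gene coordinates are from GENCODE and promoter windows from RefSeq, both on GRCm38. The edgeR test across genes was checked on simulated counts. Python 3.11.15 was used.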

Additional observations from a re-analysis of the deposited data

How the results depend on the processing

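The count of 359 genes at least 4-fold higher in GL sc was 784 at 2-fold, 208 at 8-fold, 198 with a minimum of 20 UMIs, 553 with 5 UMIs and 233 with cells of at most 25% mitochondrial UMIs. With 1 mixed library alone it was 521 to 527. The nearest type was GL endo also with 50 UMIs or more per gene, and a pseudocount cannot change ranks. The count of genes called between genotypes, 0 in the reported test, was 1 with the run as replicate block (*Hbb-bt*) and 0 to 2 with each library left out, where the lone library of a genotype is assumed to vary like the other genotype. The 2 genes, *Spp1* (log2 fold change 3.30, adjusted p = 0.00652 from edgeR) and *Hbb-bt*, were called without KO mix. The other alternatives for that count gave 0. The block pairs the female libraries of run 2 and the mixed libraries of run 3, and deviations from the genotype mean correlated by 0.496 in both pairs, which mirror each other. The share of GL sc cells was higher in run 3 under every alternative tried and passed the threshold in each, with log2 fold changes of 2.96 to 3.74 when 1 library was left out. The genotype difference of the share passed in none, and its log2 fold change ran from -2.87 (without KO mix) to 1.67 (without WT mix), with 0.02 without KO female and 0.15 without KO male, both turned in sign. *Fth1*, not called, had a log2 fold change of -0.0080 without WT female, -0.053 without KO mix and 1.55 without WT mix. Among the 4 libraries with GL sc cells, the summed GL sc UMIs were fewest in WT female (19571 from 6 cells) and KO female (24666 from 7 cells). Depth per cell was higher there, with a median of 2303.5 UMIs per GL sc cell for WT female and 2821 for KO female. The mixed libraries had lower medians, 1778 (WT mix) and 1722 (KO mix). The cause of the changes under these alternatives was not tested.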
